A study of Mus musculus with 6 samples.

Results

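The TM9SF family is the group of genes whose deposited gene name is Tm9sf1, Tm9sf2, Tm9sf3 or Tm9sf4, which makes 4 genes of the 26359 in the table. Tm9sf1 is the gene targeted by the hairpin and the other 3 are its paralogs. Their mRNA levels come from sequencing of poly(A)-selected RNA of the mouse hepatocyte line AML12, which was derived from animals with a human TGF-alpha transgene and does not form tumours. The 3 sh-1 libraries come from AML12 cells labelled with a hairpin name, and the 3 sh-NC libraries from AML12 cells labelled with the name of a control hairpin. Groups were taken from the cell line label, because sample titles read Sh-2 for the sh-1 libraries and give no hairpin at all for the sh-NC libraries, so it is uncertain whether the control cells carried one. No clone, hairpin sequence, drug or harvest time is given for either group, and no source calls the replicates separate cultures, so the spread behind each p-value is that between libraries and may be technical. The study addresses the part TM9SF1 plays in liver ischemia-reperfusion injury and autophagy.

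TM9SF proteins, the nonaspanins, are multi-pass membrane proteins with a large luminal or extracellular domain, and they reside in the Golgi and in endosomes. Their short cytosolic tail carries a signal that, in plants and yeast, binds the COPI coat and keeps the protein in the Golgi. The family was first studied in Dictyostelium and Drosophila, where members act in adhesion and phagocytosis. In human cells, TM9SF1 overexpression induces autophagosome formation, TM9SF2 is needed for synthesis of heparan sulfate and of the glycosphingolipid Gb3, and TM9SF4 associates with the proton pump V-ATPase and acts in the sorting of membrane proteins.

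All 4 genes are protein coding, and they lie in separate places of the genome (GRCm38, GENCODE M21). Tm9sf1 lies on the minus strand of chromosome 14 from 55635965 to 55643806, within a span of 7842 bases. Tm9sf2 lies on the plus strand of the same chromosome from 122107038 to 122159604. Tm9sf3 is on the minus strand of chromosome 19 from 41210844 to 41263997, and Tm9sf4 on the plus strand of chromosome 2 from 153161303 to 153210466. The longest coding transcripts differed in length and GC content, both of which matter below. Tm9sf1 has 2517 bases with a GC content of 53.7%, and Tm9sf4 has 3896 bases with 51.2%. Tm9sf2 has 3107 bases with 43.3%. Tm9sf3 has 8096 bases with 40.0%, of which 6198 are 3′ untranslated with a GC content of 38.3%.

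The upstream sequences show where transcription of each gene begins in the RefSeq annotation and how unlike these promoters are, which are set beside mRNA levels that were lower in sh-1 for 2 genes and higher for 2. Each window holds the 250 bases before a start site (RefSeq, GRCm38.p6), and RefSeq gives 2 starts for Tm9sf1. The windows are chr14:55643372-55643621 and chr14:55643807-55644056 on the minus strand for Tm9sf1, chr14:122106832-122107081 on the plus strand for Tm9sf2, chr19:41264005-41264254 on the minus strand for Tm9sf3, and chr2:153161051-153161300 on the plus strand for Tm9sf4. Capitals mark every match on either strand to one of 4 motifs. The first is the GC box, GGGCGG. The second is the CCAAT box. The third is an element of the Golgi stress response, ACGTGGC. The last is the E-box, CACGTG, which can overlap the third.
Tm9sf1 inner start: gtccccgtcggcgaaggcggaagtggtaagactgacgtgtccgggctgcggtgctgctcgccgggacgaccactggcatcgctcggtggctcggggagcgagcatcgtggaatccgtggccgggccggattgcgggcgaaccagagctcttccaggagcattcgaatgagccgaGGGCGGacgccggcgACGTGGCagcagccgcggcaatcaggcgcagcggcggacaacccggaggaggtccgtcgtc
Tm9sf1 outer start: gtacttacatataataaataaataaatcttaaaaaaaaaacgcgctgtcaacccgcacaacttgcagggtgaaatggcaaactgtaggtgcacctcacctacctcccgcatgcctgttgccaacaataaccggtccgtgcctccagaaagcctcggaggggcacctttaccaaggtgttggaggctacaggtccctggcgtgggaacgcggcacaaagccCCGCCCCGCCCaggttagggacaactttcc
Tm9sf2: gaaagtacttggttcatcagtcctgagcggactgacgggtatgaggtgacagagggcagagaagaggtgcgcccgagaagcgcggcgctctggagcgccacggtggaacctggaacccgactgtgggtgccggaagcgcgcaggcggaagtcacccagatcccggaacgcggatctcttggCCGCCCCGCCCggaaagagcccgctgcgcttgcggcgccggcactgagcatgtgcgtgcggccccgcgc
Tm9sf3: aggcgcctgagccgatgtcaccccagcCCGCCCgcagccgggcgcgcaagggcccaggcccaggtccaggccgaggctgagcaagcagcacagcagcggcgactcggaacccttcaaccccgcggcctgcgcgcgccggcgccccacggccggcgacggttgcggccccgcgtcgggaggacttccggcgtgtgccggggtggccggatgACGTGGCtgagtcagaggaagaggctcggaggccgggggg
Tm9sf4: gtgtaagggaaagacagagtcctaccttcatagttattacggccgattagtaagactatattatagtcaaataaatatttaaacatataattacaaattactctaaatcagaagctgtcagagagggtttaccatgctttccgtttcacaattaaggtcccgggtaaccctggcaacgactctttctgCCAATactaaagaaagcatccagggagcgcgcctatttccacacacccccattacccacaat

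GC content in these windows was 70.0% and 52.8% at the inner and outer start of Tm9sf1, 68.0% for Tm9sf2, 76.4% for Tm9sf3 and 40.4% for Tm9sf4, against a median of 52.4% over 32851 RefSeq promoters. ACGTGGC occurred once at the inner start of Tm9sf1 and once in the Tm9sf3 window, and 2.02% of all promoters hold it. GGGCGG or its complement occurred in the windows of Tm9sf1, Tm9sf2 and Tm9sf3 (32.7% of all promoters), with 2 overlapping matches each at the outer start of Tm9sf1 and in Tm9sf2. CCAAT occurred once, in the Tm9sf4 window (33.8% of all promoters). CACGTG, held by 6.02% of promoters, is not among the letters of these windows. A match describes the letters and is no evidence of binding.

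Little exact sequence is common to the 4 genes. Coding sequences were 54.0% to 57.8% identical over their aligned bases, with Tm9sf2 and Tm9sf4 the most alike pair. Over all GENCODE M21 transcripts of the 4 genes, no pair shared any stretch of 19 bases. Tm9sf1 and Tm9sf4 shared at most 15 bases, within both coding sequences. The longest run had 11 bases for Tm9sf1 and Tm9sf2 and 13 bases for Tm9sf1 and Tm9sf3. For Tm9sf3 and Tm9sf4 it had 15 bases, outside the longest coding sequences. These pairs are not shown. The longest runs of the remaining pairs, which lie within both coding sequences, are shown because they bound the length of any exact match common to both members.
Tm9sf1 and Tm9sf4: taccgctggtggtgg
Tm9sf2 and Tm9sf3: agccattccttttgg
Tm9sf2 and Tm9sf4: tgtgcagaggattacc

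Depth was 36997329 to 41506383 counts in the sh-1 libraries and 39462554 to 51334798 in the sh-NC libraries. Hepatocyte identity was only partly visible. Of 10 hepatocyte markers, 7 in sh-1 and 9 in sh-NC averaged 1 CPM (counts scaled to a common library total) or more, with a summed level of 566 to 653 CPM in sh-1 and 417 to 428 CPM in sh-NC. Of these, Hnf4a measured 311 to 374 CPM in sh-1 and 137 to 157 in sh-NC, and Trf 185 to 202 in sh-1 and 218 to 232 in sh-NC. Alb, the gene of albumin, measured 1.84 to 4.05 CPM in sh-1 and 3.65 to 4.73 in sh-NC, and Ttr, Apoa1 and Fgb were at most 0.757 in sh-1 and at most 2.08 in sh-NC. The 4 epithelial markers summed to 6551 to 8018 CPM in sh-1 and 9658 to 11072 CPM in sh-NC, nearly all of it from Krt8 and Krt18. Cdh1 did not share the lower level, at 147 to 185 CPM in sh-1 and 134 to 161 in sh-NC. Epcam was at most 0.05 CPM in sh-1 and 0.27 in sh-NC. The 5 bile duct markers were present, with a summed level of 3666 to 4077 CPM in sh-1 and 1901 to 2022 in sh-NC, which is carried by Spp1, Krt19 and Krt7. Summed levels of 6 fibroblast, 5 macrophage and 5 endothelial markers were at most 2.03, 2.43 and 3.14 CPM in sh-1 and at most 1.60, 5.40 and 4.70 in sh-NC, and Clec4f, which marks Kupffer cells, was at 0 in each library. In bulk RNA, fewer cells of a kind and less RNA per cell cannot be told apart, and the part these markers have in the results below was not tested. Replicates of a group differed by more than sampling noise (chi-square per degree of freedom of 14.7 or more in each of the 6 pairs), and all 6 libraries were kept.

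Tm9sf1 mRNA, the knockdown target, was detected well in every library and was lower in sh-1. Its raw counts were 1474, 1583 and 1401 in the sh-1 libraries, against 1951, 2034 and 2203 in the sh-NC libraries. Its level was 14.2, 15.4 and 15.4 FPKM in sh-1, against 19.7, 21.4 and 17.7 FPKM in sh-NC (FPKM, which the authors scaled for the length of the transcript and for depth). The groups did not overlap, and the sh-NC libraries were spread more widely than the sh-1 libraries. In edgeR's quasi-likelihood test with TMM scaling, Tm9sf1 fell to 74.3% of its sh-NC level (log2 fold change -0.43, SE 0.10, edgeR adjusted p = 0.00186). A larger fall was fitted for 4187 of the 13197 genes tested. TM9SF1 protein was not measured in these files.

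Tm9sf4 mRNA had a lower ratio of sh-1 to sh-NC than that of the targeted gene. Its raw counts were 2824, 2613 and 2368 in sh-1, against 5475, 4699 and 6274 in sh-NC. Its level was 16.7, 15.5 and 15.8 FPKM in sh-1, against 33.1, 29.5 and 30.5 FPKM in sh-NC. Each sh-1 library was far below each sh-NC library, and the spread within either group was small beside that gap. Tm9sf4 fell to 49.3% of its sh-NC level (log2 fold change -1.02, SE 0.08, edgeR adjusted p = 4.72e-07), while 1796 of the genes tested had a larger fitted fall.

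Tm9sf3, the member with the highest mean FPKM in both groups, rose. Raw counts were 14372, 14495 and 14184 in sh-1, against 10903, 8580 and 10430 in sh-NC. Its level was 53.9, 54.6 and 59.8 FPKM in sh-1, against 41.8, 34.1 and 32.1 FPKM in sh-NC, without overlap. The log2 fold change was 0.58 (SE 0.09, edgeR adjusted p = 0.000117), or 1.49-fold.

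Tm9sf2 rose by the smallest factor. Raw counts were 5010, 4947 and 4458 in sh-1, against 4493, 3252 and 4396 in sh-NC. Its level was 37.2, 36.9 and 37.2 FPKM in sh-1, against 34.1, 25.6 and 26.8 FPKM in sh-NC. The sh-1 libraries were nearly identical, and sh-NC replicate 1 came close to them while the other 2 sh-NC libraries were lower. The log2 fold change was 0.30 (SE 0.10, edgeR adjusted p = 0.0147), or 1.23-fold. Leaving out sh-NC library 2 ended this call (log2 fold change 0.23, edgeR adjusted p = 0.0823) as did leaving out sh-NC library 3 (0.27, edgeR adjusted p = 0.0563).

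All 4 members thus passed the threshold, 2 higher and 2 lower, at an adjusted p under 0.05. That is little out of the ordinary here, because 65.5% of all genes tested passed it in either direction, 33.3% higher and 32.2% lower, and the groups did not overlap in 70.3% of genes.

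**Figure D1:**
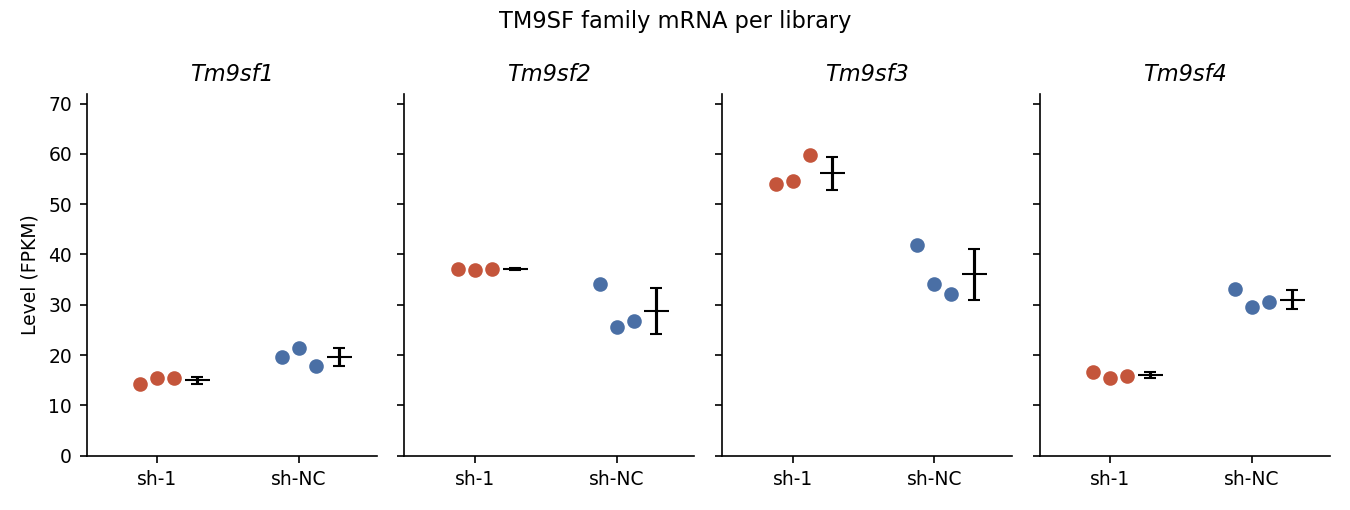
Level of each TM9SF gene in FPKM in the 3 sh-1 libraries (red, left) and the 3 sh-NC libraries (blue, right), with 1 point per library and the mean and SD beside the points (n = 3). Tm9sf1 and Tm9sf4 lie lower in sh-1 and Tm9sf2 and Tm9sf3 higher, with Tm9sf4 at 15.5 to 16.7 FPKM in sh-1 against 29.5 to 33.1 FPKM in sh-NC.

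The order of the members by level differed between the groups. In sh-1, Tm9sf3 was highest at 56.1 ± 3.23 FPKM (SD, n = 3), followed by Tm9sf2 at 37.1 ± 0.190 FPKM, Tm9sf4 at 16.0 ± 0.631 FPKM and Tm9sf1 at 15.0 ± 0.686 FPKM. No 2 neighbours in that order overlapped between libraries, although Tm9sf4 and Tm9sf1 nearly met. In sh-NC, Tm9sf3 was at 36.0 ± 5.09 FPKM (SD, n = 3), Tm9sf4 at 31.0 ± 1.86 FPKM, Tm9sf2 at 28.8 ± 4.58 FPKM and Tm9sf1 at 19.6 ± 1.84 FPKM. There the first 3 were not separable beyond their spread: Tm9sf3 was above Tm9sf4 in 3 of 3 libraries and Tm9sf4 above Tm9sf2 in 2 of 3, but the ranges over libraries overlapped in both pairs, and that of Tm9sf1 overlapped with none. Per kilobase of the longest coding transcript, with TMM-scaled counts in place of FPKM, Tm9sf3 still had the largest share of the family sum in sh-1 (38.8%) but the third largest in sh-NC (25.9%), below Tm9sf4 (29.5%) and Tm9sf2 (27.2%). Among genes with a level above 0 in the same library, Tm9sf4 stood between the percentiles 73.1 and 74.6 in sh-1 and between 83.7 and 85.2 in sh-NC. Tm9sf1 stood between 71.8 and 73.5 in sh-1 and between 76.4 and 78.9 in sh-NC.

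The summed FPKM of the family overlapped between the groups while its make-up differed, and the direction of the sum depended on the scale. The sum of the 4 FPKM values was 122, 122 and 128 in sh-1, against 129, 111 and 107 in sh-NC, and the groups overlapped (exact permutation test, two-sided, p = 0.4, n = 3 each). The difference in means was 8.77 FPKM, with 15.3 FPKM and no overlap when sh-NC library 1 was left out, and 4.61 FPKM when sh-NC library 3 was left out. Corrected for GC content and length, as described below, the sum in CPM per kilobase was 99.9, 86.6 and 88.0 in sh-1, against 132, 135 and 129 in sh-NC, a ratio of 0.694 without overlap (exact permutation test, two-sided, p = 0.1, the smallest that 3 libraries against 3 allow). Tm9sf3 made up 44.2, 44.6 and 46.7% of the sum in sh-1, against 32.5, 30.9 and 30.0% in sh-NC. Tm9sf4 made up 13.7, 12.7 and 12.3% in sh-1, against 25.7, 26.7 and 28.5% in sh-NC. These shifts mirror each other in size, as Tm9sf3 held 14.0 percentage points more of the sum and Tm9sf4 14.1 less. The share of Tm9sf2 was 29.9 ± 0.754% in sh-1 and 24.9 ± 1.68% in sh-NC (SD, n = 3 each), and that of Tm9sf1 was 12.1 ± 0.480% in sh-1 and 17.1 ± 2.07% in sh-NC. None of the 4 shares of FPKM overlapped between the groups, where 70.3% of all genes tested did not overlap either. Each share gave p = 0.1 in the exact permutation test (two-sided, adjusted p = 0.1 over the 4 shares), which is the smallest value that 3 libraries against 3 allow. With the same correction as for the sum, the shares of Tm9sf2 and Tm9sf3 overlapped between the groups, and that of Tm9sf1 was higher in sh-1. Shares of a sum are tied to each other, so they do not count as separate results.

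Ratios between members within a library, which are free of library scaling, separated the groups for each of the 6 pairs. The pairs share members, so the ratios are tied to each other and do not count as separate results. Separation is also common here, as the groups did not overlap in log2 CPM in 70.3% of all genes tested. How often ratios of other gene pairs separate the groups was not tested. The Tm9sf3 to Tm9sf4 ratio differed most, with log2 values of 1.69, 1.81 and 1.93 in sh-1, against 0.34, 0.21 and 0.08 in sh-NC. The Tm9sf2 to Tm9sf4 ratio averaged 1.21 in sh-1 and -0.12 in sh-NC on the log2 scale. Tm9sf1 to Tm9sf4 was -0.09 ± 0.12 in sh-1 and -0.66 ± 0.18 in sh-NC (log2, SD, n = 3 each), so the targeted gene was closer in level to this paralog in sh-1. The smallest difference between the groups was in the ratio of Tm9sf2 to Tm9sf3, which was -0.60 ± 0.08 in sh-1 and -0.32 ± 0.08 in sh-NC. All 6 ratios had p = 0.1 by the exact permutation test (two-sided, adjusted p = 0.1 over the 6), again the smallest possible. With the trend along GC content and length removed, the differences for Tm9sf1 to Tm9sf2, Tm9sf1 to Tm9sf3 and Tm9sf2 to Tm9sf3 reversed. Those for the ratios to Tm9sf4 kept their direction.

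**Figure D2:**
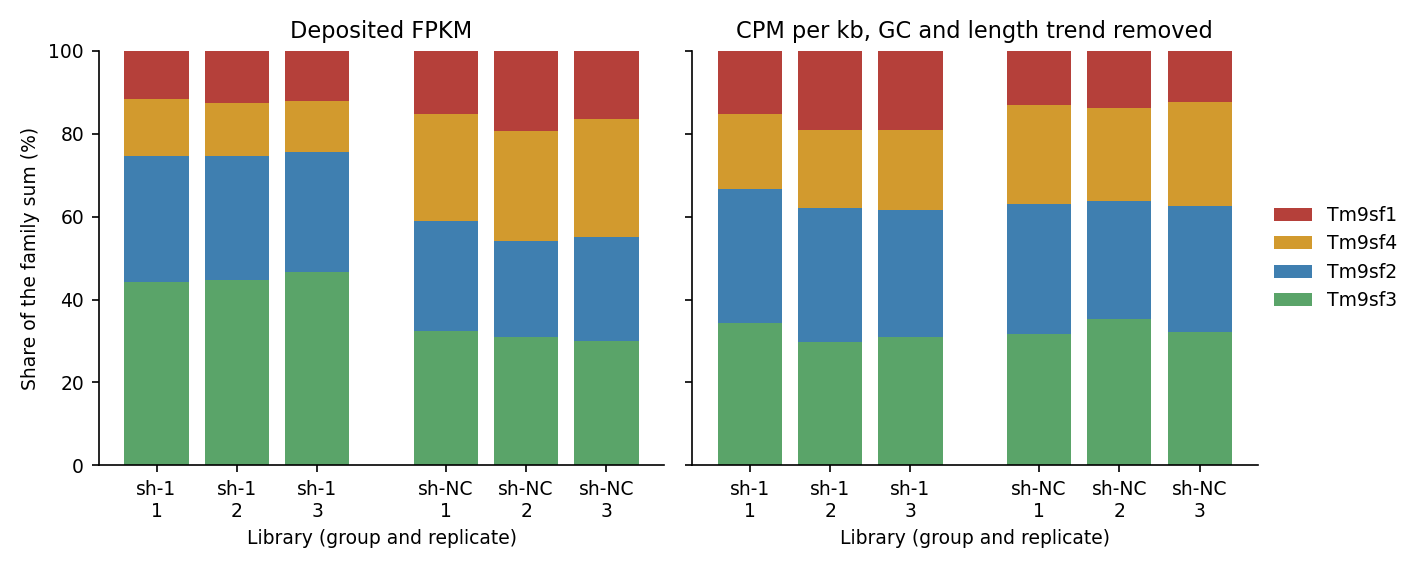
Share of each TM9SF gene in the summed family level of each library, in percent, with the sh-1 libraries left and the sh-NC libraries right in each panel. In the left panel (deposited FPKM) Tm9sf4 takes 12.3 to 13.7% in sh-1 and 25.7 to 28.5% in sh-NC. The right panel shows CPM per kilobase after removal of the trend along GC content and length. There Tm9sf4 takes 18.3 to 19.4% in sh-1 and 22.4 to 25.1% in sh-NC, while the libraries of the groups overlap for Tm9sf2 and Tm9sf3.

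Across the transcriptome, fold changes moved with the GC content of the transcript, and the members sit at different points along it. All genes were divided into 10 equal bins by GC content. Genes in the bin of Tm9sf3 had a median log2 fold change of 1.03, and 69.0% of them passed the threshold as higher in sh-1. For the bin that holds Tm9sf2 the median was 0.75, with 64.7% called higher, so both paralogs lay below the median of transcripts of like composition. In the bin of Tm9sf1 the median was -0.30, and 45.7% of genes were called lower, against the change of -0.43 for Tm9sf1 itself. In the bin of Tm9sf4 the median was -0.14, and 39.0% were called lower, against the change of -1.02 for this gene. What part GC content has in the members' values was not tested beyond the correction that follows.

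With the dependence of each library on GC content and length taken out, Tm9sf4 alone among the members kept both its call and its direction. Its log2 fold change was -0.89 (SE 0.07, edgeR adjusted p = 9.38e-08). Tm9sf1 did not pass the threshold (-0.11, SE 0.09, edgeR adjusted p = 0.282), with corrected levels of 38.2, 41.8 and 42.3 CPM in sh-1, against 43.5, 46.9 and 39.9 CPM in sh-NC, so the groups overlapped. Tm9sf2 and Tm9sf3 were now lower in sh-1 (-0.46, SE 0.08, edgeR adjusted p = 0.000101, and -0.60, SE 0.10, edgeR adjusted p = 0.000216). After this correction 67.6% of 11956 genes passed, 32.2% higher and 35.4% lower. Any real change that genes of one composition have in common is taken out as well, and neither set of values shows which of the 2 is nearer to the amount of RNA in the cells. On this scale the share of Tm9sf1 in the family was 17.8 ± 2.28% in sh-1 and 13.1 ± 0.755% in sh-NC (SD, n = 3 each), the opposite order to that in FPKM. Tm9sf4 still held less, 18.8 ± 0.568% in sh-1 and 23.8 ± 1.34% in sh-NC.

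**Figure D3:**
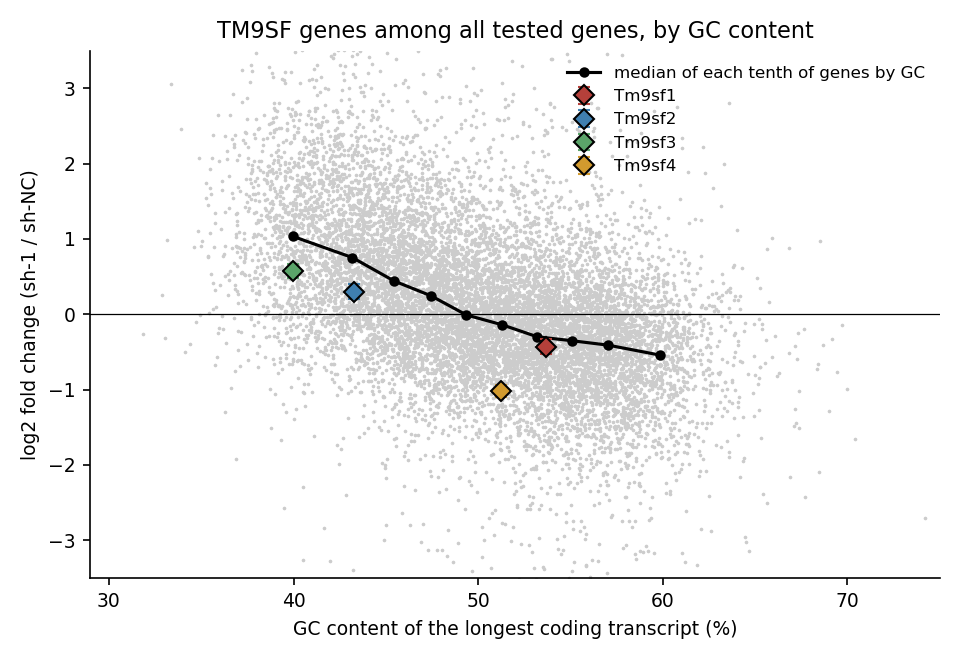
Log2 fold change of sh-1 over sh-NC (vertical axis) against the GC content of the longest coding transcript in percent (horizontal axis) for 11956 tested genes (grey, 207 of them beyond the axes), with the median of each of 10 bins of genes by GC content (black) and the 4 TM9SF genes with their SE (diamonds). Tm9sf1 at -0.43 sits just below the line, Tm9sf2 and Tm9sf3 sit above 0 but below the line, and Tm9sf4 at -1.02 sits well below the median of its bin at -0.14.

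**Figure D4:**
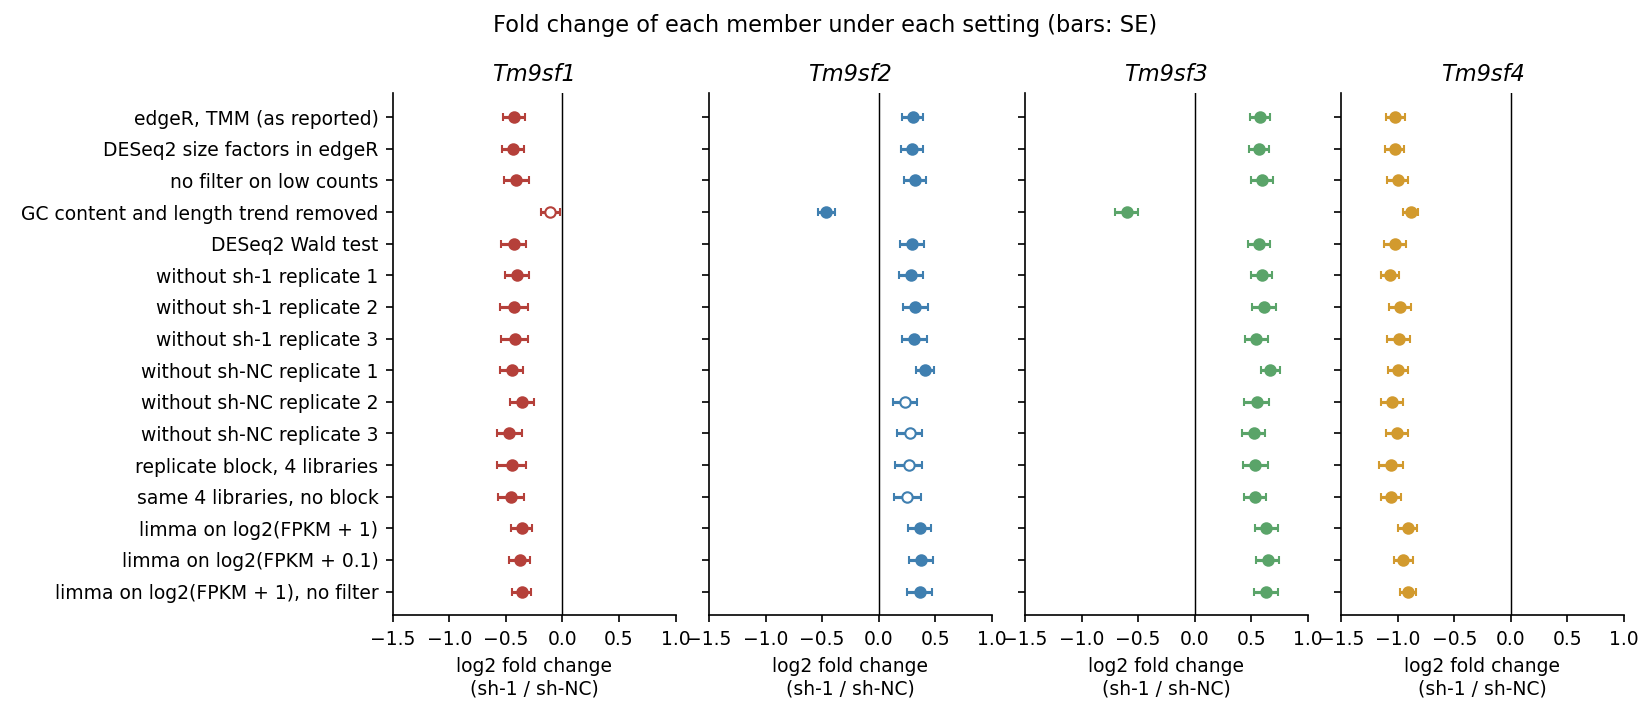
Log2 fold change of sh-1 over sh-NC (horizontal axis) of each TM9SF gene under each setting of the analysis (rows), with bars for the SE and open points where the adjusted p was 0.05 or more. Tm9sf4 stays between -1.07 and -0.89, whereas removal of the trend along GC content and length takes Tm9sf1 to -0.11 and turns Tm9sf2 and Tm9sf3 to -0.46 and -0.60.

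The table also holds a DESeq2 comparison by the authors of A against B, and which samples A and B stand for is not stated. In the authors' deposited table Tm9sf1 has a log2 fold change of -0.55 (adjusted p = 0.000384) and Tm9sf4 one of -0.62 (adjusted p = 0.0469). In the authors' deposited table Tm9sf3 is at 0.54 and Tm9sf2 at 0.45, with adjusted p of 0.0833 and 0.114. The authors' deposited table lists 3250 of 11445 genes at an adjusted p under 0.05.

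Genes that overlap, neighbour or share a name with the members were looked at as well. Exons of Tm9sf1 overlap those of Gm49378, a gene on the same strand whose protein-name column also reads Tm9sf1, and it had 17, 16 and 18 counts in sh-1, against 36, 22 and 28 in sh-NC (log2 fold change -0.70, edgeR adjusted p = 0.237). An antisense gene, Gm49747, overlaps its exons as well and has no row of its own, and whether counting used strand is not stated. Gm364, whose protein-name column reads Tm9sf5, had 8, 0 and 3 counts in sh-1 and 0 in each sh-NC library. Of the nearest tested genes on either side of each member, Clybl beside Tm9sf2 rose to 21.2 ± 1.87 CPM in sh-1, against 3.96 ± 0.383 CPM in sh-NC (SD, n = 3 each, log2 fold change 2.42, edgeR adjusted p = 8.31e-08). Ubac2, on the other side of Tm9sf2, fell (-0.39, edgeR adjusted p = 0.00538), although not once corrected for composition (-0.09, edgeR adjusted p = 0.391). Blnk and Pik3ap1, which encode adaptor proteins of immune receptor signalling and flank Tm9sf3, were at -1.55 and 3.08 (edgeR adjusted p = 1.9e-08 and 2.26e-06). The level of Pik3ap1 was low, at 4.87 CPM in sh-1 and 0.571 CPM in sh-NC on average. Pdrg1 beside Tm9sf4 fell by 0.54 on the log2 scale (edgeR adjusted p = 0.000158). The neighbours Tssk4 and Tspyl3 averaged 0.116 and 0.289 CPM in sh-1, against 0.284 and 0.332 CPM in sh-NC, and did not pass (edgeR adjusted p = 0.334 and 0.788). Neighbours of the 2 members that rose therefore did not share one direction with them.

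Genes whose profile over the 6 libraries was nearest to that of each member were found by the root mean square difference of log2 CPM centred on each gene's mean, among 8407 genes. Crcp, Zmiz2 and Unc50 were nearest to Tm9sf1 (differences of 0.04 each), and 200 genes were within 0.1. Pdia3, Rab6a and Yy1 were nearest to Tm9sf2, with 185 genes within 0.1. Selenoi, Hs2st1 and Rab1a were nearest to Tm9sf3 at 0.02 to 0.03, with 239 within 0.1, and Jmjd4, Dpf2 and Atg13 to Tm9sf4 at 0.03 to 0.04, with 260 within 0.1. Among the members, Tm9sf2 and Tm9sf3 differed by 0.15, Tm9sf1 and Tm9sf4 by 0.32, and Tm9sf3 and Tm9sf4 by 0.81.

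The list of genes of the COPI coat, which recycles TM9SF proteins, and of Golgi retrieval moved both ways. Within it the subunit genes Copb1, Copb2, Copg2, Arcn1 and Copz1 rose, and Copa, Copg1 and Cope did not pass. The subunits were not a list of their own, and 33.3% of all genes tested were called higher. No tested subunit gene was called lower, with or without the correction for GC content and length. With it Arcn1 no longer passed (0.08, edgeR adjusted p = 0.224), and Copb1 and Copg2 were smaller, at 1.14 and 0.80. Copg1 and Cope then passed as higher (0.19 and 0.47, edgeR adjusted p = 0.014 and 3.08e-05). Before the correction the falls were all among Arfgap, Kdelr and Tmed genes. Of 24 tested genes of the COPI coat and of Golgi retrieval, 7 rose, 9 fell and 8 did not pass, near the background shares of 33.3% and 32.2%, and the median log2 fold change was -0.09, against -0.00065 over all genes tested. The coat subunits Copb1 and Copg2 rose to 121 ± 10.2 and 124 ± 2.57 CPM in sh-1, against 30.8 ± 6.03 and 44.2 ± 5.50 CPM in sh-NC (SD, n = 3 each, log2 fold changes 1.98 and 1.49, edgeR adjusted p = 1.04e-07 and 9.97e-08). Kdelr3, a receptor that returns escaped proteins to the endoplasmic reticulum, and Tmed9, a cargo receptor of early secretory vesicles, fell (log2 fold changes -1.36 and -1.07, edgeR adjusted p = 1.13e-06 and 1.38e-06). With the correction 11 were higher and 9 lower (background shares 32.2% and 35.4%), and 6 and 8 of the original calls were kept.

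Heparan sulfate synthesis, which needs TM9SF2 in human cells, was split as well. Of 21 tested genes 9 rose and 10 fell, against background shares of 33.3% and 32.2%, with a median log2 fold change of -0.11, and 4 and 9 of these calls were kept after the correction, which gave 5 higher and 10 lower (background shares 32.2% and 35.4%). Extl3 and Ndst2, which encode an initiating glycosyltransferase and a deacetylase and sulfotransferase of the chain, fell (log2 fold changes -1.18 and -1.46, edgeR adjusted p = 6.98e-07 and 1.08e-06), and Hs6st1, a sulfotransferase gene, fell by 0.89 (edgeR adjusted p = 1.94e-06). The chain polymerase gene Ext1 rose by 0.84 (edgeR adjusted p = 3.92e-06), but its corrected value was 0.01 (edgeR adjusted p = 0.94).

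Glycosphingolipid genes fell more often than they rose. Of 17 genes listed for the route to Gb3, 16 were tested. A4galt, the gene of Gb3 synthase, was not, so the counts do not cover the last step to Gb3. Of the 16 tested genes, 10 fell and 4 rose, against background shares of 32.2% and 33.3%, with a median log2 fold change of -0.43. All 10 falls and 1 of the 4 rises were kept after the correction, which gave 13 lower and 2 higher (background shares 35.4% and 32.2%). B4galt5, the gene of a lactosylceramide synthase, fell to 14.9 ± 1.93 CPM in sh-1, against 56.9 ± 3.49 CPM in sh-NC (SD, n = 3 each, log2 fold change -1.93, edgeR adjusted p = 6.04e-08). The ceramide desaturase gene Degs1 and Sptlc1, a subunit of the enzyme that begins sphingolipid synthesis, fell (log2 fold changes -1.20 and -0.54, edgeR adjusted p = 1.99e-07 and 0.00013). Laptm4a, which like TM9SF2 is needed for Gb3 in human cells, rose to 421 ± 13.9 CPM in sh-1, against 206 ± 4.78 CPM in sh-NC (SD, n = 3 each, log2 fold change 1.03, edgeR adjusted p = 2.05e-07).

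V-ATPase genes, which encode the pump that TM9SF4 associates with, were called higher more often than lower. Of 16 tested genes 8 rose and 3 fell, against background shares of 33.3% and 32.2%, and the median log2 fold change was 0.32. Without sh-1 library 1, 5 were lower. Only 4 of the 8 rises were kept after the correction, with all 3 falls, so that 5 were then higher and 4 lower (background shares 32.2% and 35.4%). Atp6v1e1, a peripheral stalk subunit, rose to 187 ± 7.96 CPM in sh-1, against 103 ± 4.39 CPM in sh-NC (SD, n = 3 each, log2 fold change 0.86, edgeR adjusted p = 1.08e-06, 0.76 after the correction). Atp6v1d, a subunit of the central rotor, and Atp6v1a, the catalytic subunit, rose by 1.19 and 0.81 (edgeR adjusted p = 3.04e-07 and 6.39e-06), with 0.33 and 0.14 after the correction, and Atp6v1a then no longer passed (edgeR adjusted p = 0.0579). Atp6v1c1, which links the catalytic head to the stalks, rose by 0.71 (edgeR adjusted p = 1.06e-05, and 0.15 after the correction). The list counts are descriptions beside those of all genes, with no test of a list as a whole.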

How the data were processed

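Poly(A) RNA of AML12 cells was sequenced in 3 sh-1 and 3 sh-NC libraries, grouped by the cell line label. The submitters' processing notes list HISAT2, StringTie and the build GRCm38, without the versions or how reads were assigned to genes. The deposited table holds whole-number counts per gene that the authors did not normalise, and FPKM scaled by the authors for length and depth, per the file headers. It also holds an A against B comparison that the authors ran with DESeq2, per the file headers. Of 26369 rows, 10 without an identifier were left out.

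Counts were fitted in R 4.3.3 with edgeR 4.0.16 (filterByExpr, TMM, robust quasi-likelihood, two-sided), with Benjamini-Hochberg adjustment over all 13197 genes tested and a threshold of 0.05. CPM are TMM-scaled, except for cell type markers, which are scaled by total counts. GC content and length were corrected for by splines (5 and 4 degrees of freedom) as an edgeR offset, for 11956 genes with a coding transcript in GENCODE M21. DESeq2 1.42.0 and limma 3.58.1, on log2(FPKM + 1) and log2(FPKM + 0.1) for genes with a mean FPKM of at least 0.5, were alternatives. The edgeR script was tested on simulated data. Shares and ratios of FPKM were tested by exact permutation (SciPy 1.17.1). Promoters are from RefSeq (5 windows, all 4 genes matched), and coding sequences were aligned with Biopython 1.88.

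The members and gene lists were chosen with earlier results of these data known. Named genes are the members, up to 4 genes with the smallest adjusted p in each list, the nearest tested neighbours, genes with overlapping exons and the 3 most similar profiles (mean log2 CPM of at least 3).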

Additional observations from a re-analysis of the deposited data

How the results depend on the processing

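Of the 60 alternative values for the members' fold changes, 53 kept direction and call, 5 lost the call and 2 reversed. Removal of the trend along GC content and length took Tm9sf1 to -0.11 and reversed Tm9sf2 (-0.46) and Tm9sf3 (-0.60). On that scale, added after seeing the data, the share difference (sh-1 minus sh-NC) reversed for Tm9sf1 (4.75 percentage points) and Tm9sf3 (-1.40), as did the log2 ratios of Tm9sf1 to Tm9sf2 (0.36), Tm9sf1 to Tm9sf3 (0.50) and Tm9sf2 to Tm9sf3 (0.14). In CPM per kilobase the family sum was nearly equal between the groups (difference -0.39, ratio of sh-1 to sh-NC 0.997, with overlap). With the trend removed the difference was -40.3, reversed from FPKM. Leaving out each library gave Tm9sf2 log2 fold changes of 0.23 to 0.41, and the call was lost without sh-NC replicate 2 or 3. With 3 libraries against 2, the exact tests can reach 0.2 at best. Titles share the numbers 2 and 3, and with that number as a replicate block in 4 libraries Tm9sf2 was at 0.27 (edgeR adjusted p = 0.0791), and at 0.26 (edgeR adjusted p = 0.0937) in the same libraries without the block. Calls over all genes were 7478 with the block and 7931 without it. Same-numbered libraries hardly deviated together (r of 0.03 and -0.05 across genes), and other pairs ranged from -0.11 to 0.08. With so few same-numbered pairs, this cannot show whether they share more than a number. All 36 alternative counts of called genes were within 1.5 times the reported ones, and 5 of 56 list counts were not, 4 of them after removal of the trend and the other for lower V-ATPase genes without sh-1 replicate 1. Tm9sf4 kept its fall under all 15 alternatives (-1.07 to -0.89, adjusted p at most 0.000139). Depth does not limit the members, which had 1401 counts or more in each library.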
